A study of Mus musculus with 32 samples.

Results

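Ribosome biogenesis factors are the proteins that make ribosomal RNA in the nucleolus and build it into the 2 ribosomal subunits. The 43 genes described here were listed by name as members of that pathway, with earlier results of these data known. Each was found on the array through the RefSeq identifier of its probe, and the brightest probe stood for the gene. All 43 passed the filter on dim probes, among 23132 genes that did, and all 43 were well above background on all 32 arrays. The samples were livers of 32 male, singly housed wild-type C57BL/6 mice, 1 mouse per array, hybridised to 1-colour Agilent arrays. The 16 steady mice lived in 12 h light and 12 h dark. The 16 jet-lagged mice changed repeatedly, starting when they were 4 weeks old, between a pair of rooms with lights coming on 8 h apart. Tissue was collected at ages of 12 and 30 weeks and at zeitgeber times (ZT, counted in hours from lights on) 2, 10 and 18, with 2 mice in each ZT2 group and 3 in each other group. How the ZT of a jet-lagged mouse relates to its last move is not stated in the labels.

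RNA polymerase I transcribes the large ribosomal RNA precursor. Small nucleolar ribonucleoproteins (snoRNPs) modify and guide the cleavage of that RNA, the small subunit processome folds its 5′ part, and separate sets of factors mature the small and the large subunit. The liver grows and shrinks over the feeding cycle, and ribosome production in this organ is known to follow the day. Levels below are log2 intensities relative to the 75th percentile of their array, so a level of 0 is that percentile and levels of different genes cannot be compared. A gene is called when the limma test across all 23132 genes gave a Benjamini-Hochberg adjusted p under 0.05. A range is the highest minus the lowest of 3 fitted time means, and an SE is the standard error of a difference.

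Hepatocyte markers marked the tissue as labelled, with 10 of 10 well above background on every array and a mean level between 9.13 and 9.67 over mice. Markers of neighbouring tissues varied far more. The mean level of 8 measured of 15 listed pancreatic acinar markers ran from -2.67 to 3.97 over mice, and that of 12 measured of 13 listed skeletal muscle markers from -4.38 to 3.77. Between 4 and 8 of those acinar markers, and between 3 and 12 of those muscle markers, were well above background on an array. The mean level of 3 measured of 4 listed adipocyte markers ran from -1.77 to 2.35. In steady mice at 12 weeks it was -1.49 to -0.88 at ZT2, -1.27 to 1.29 at ZT10 and -0.06 to 0.90 at ZT18. Steady mice at ZT18 had high muscle levels (0.68 to 2.42 over the 6 mice of both ages), and jet-lagged mice at ZT10 and 12 weeks had muscle levels of -0.28 to 1.48 against -4.38 to -2.01 in their steady counterparts, with mean acinar levels of 1.88 and -1.87 whose mice overlapped. All 8 listed Kupffer cell and macrophage markers were well above background on every array, with a mean level of 3.02 to 4.43 over mice. The part of these tissues in the results below was not tested beyond the refits named. These either held the acinar and muscle levels (not adipocyte) as covariates or left out the 10 arrays with mean acinar level above 0. The refit without those arrays was chosen after the data were seen. That last refit left 4 groups with 1 mouse. At 12 weeks these were jet-lagged ZT2 (mouse 2), jet-lagged ZT10 (mouse 1) and steady ZT18 (mouse 3), and at 30 weeks jet-lagged ZT10 (mouse 1). In whole tissue, fewer cells of a type and less RNA per cell cannot be told apart.

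**Figure D1:**
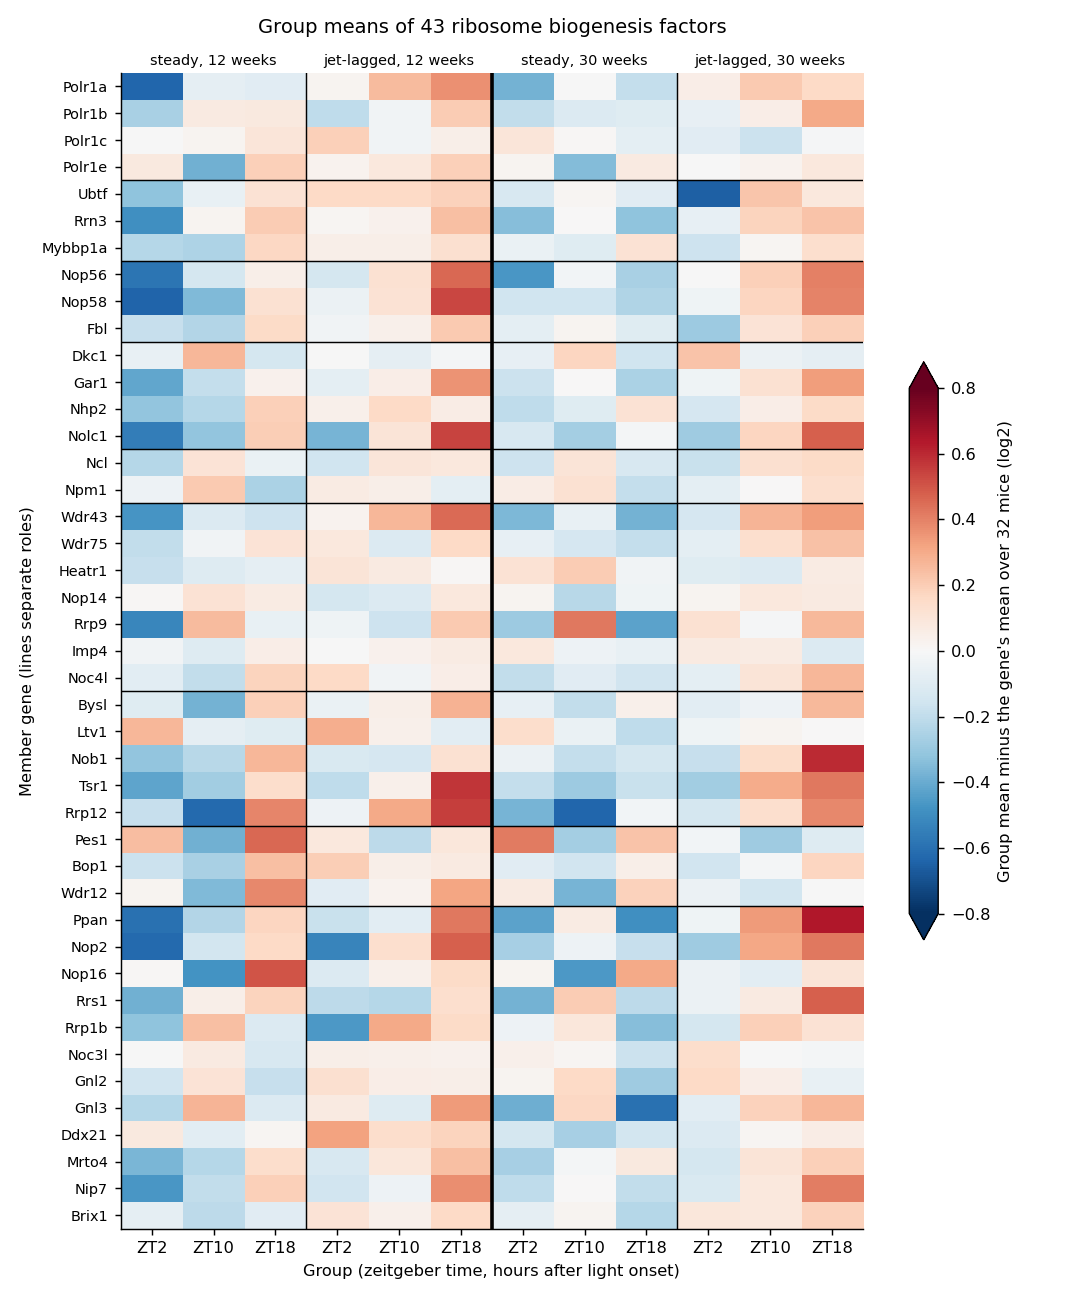
Group means of the 43 members (rows, ordered by role from RNA polymerase I at the top to large subunit assembly at the bottom) in the 12 groups (columns), each minus the gene's mean over 32 mice, in log2. In steady mice at 12 weeks most rows turn from blue at ZT2 to red at ZT18, and in jet-lagged mice the ZT18 columns are the reddest at both ages.

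In steady mice at 12 weeks, the first question was which members varied over the day. Of the 43 members, 14 varied with time of day (32.6%), against a background of 17.4% of all genes, and 22.5% when only genes well above background on every array were tested. Their highest mean fell at ZT18 for 10 of the 14 and at ZT10 for 4, and at ZT2 for none. The median range over all 43 members, called or not, was 0.48, against 0.34 over all genes. Among the 43, 29 had their highest mean at ZT18, 12 at ZT10 and 2 at ZT2. The split of all genes over the times is not given here or below, so such splits are not read as particular to the members. That split rested partly on mouse 3 of the steady ZT18 group, whose members' mean deviation of 0.36 was the highest of all 32 mice: without it, 20 were highest at ZT18 and 19 at ZT10. All 3 members of the PeBoW complex, which processes the large subunit RNA, were called, as were 5 of 12 other large subunit assembly factors. Of 7 small subunit processome members and of 5 late small subunit factors, 1 each was called.

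Nop16, a nucleolar factor of the early large subunit precursor, had the clearest profile. Its levels in steady mice at 12 weeks were 2.33 and 2.36 at ZT2, 1.94, 1.96 and 1.68 at ZT10, and 2.69, 2.81 and 3.02 at ZT18. The 3 time groups did not overlap: every ZT10 mouse was below both ZT2 mice, and every ZT18 mouse above them. Its range of 0.97 (a 1.96-fold change, n = 8) had an adjusted p of 1.45e-05 by limma. Wdr12, a subunit of the PeBoW complex, followed the same order, with -0.41 and -0.33 at ZT2, -0.46, -0.67 and -1.09 at ZT10, and -0.13, 0.00 and 0.10 at ZT18 (range 0.73, limma adjusted p = 0.00364). Again no ZT10 mouse reached a ZT2 mouse and no ZT2 mouse reached a ZT18 mouse. Pes1, another subunit of the same complex, read 1.68 and 1.57 at ZT2, 1.27, 0.94 and 0.78 at ZT10, and 1.61, 1.89 and 2.01 at ZT18 (range 0.88, limma adjusted p = 0.00634). Here the ZT10 mice stood below the rest, while ZT2 and ZT18 overlapped. Bop1, the third subunit, ranged over 0.42 and was also highest at ZT18 (limma adjusted p = 0.0273). Pes1 has a second probe, with a range of 0.23 that was not called, and with both probes averaged its range was 0.45 (limma adjusted p = 0.0819).

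Rrp12, an export and late maturation factor, ranged over 0.97 and was highest at ZT18 (limma adjusted p = 0.0374). Its levels were -2.04 and -1.73 at ZT2, -2.02, -2.05 and -2.89 at ZT10, and -1.56, -1.49 and -0.86 at ZT18. The ZT18 mice were the highest, but 1 low ZT10 mouse and 1 high ZT18 mouse set much of the range. Without either of these mice, number 3 of their groups, the range was 0.71 and 0.70 and the call was lost (adjusted p = 0.168 and 0.186), as it was without mouse 2 of the ZT18 group (0.0567), with marker covariates (0.247) and with the slide as a fixed block (0.183). Rrp9, a protein of the U3 snoRNP at the core of the small subunit processome, peaked earlier. It read -0.12 and 0.16 at ZT2, 0.82, 0.94 and 0.60 at ZT10, and 0.25, 0.43 and 0.76 at ZT18 (range 0.81, limma adjusted p = 0.00812). Both ZT2 mice were below all others, and ZT10 and ZT18 overlapped. Npm1, an abundant nucleolar chaperone, was likewise highest at ZT10 (range 0.47, limma adjusted p = 0.00104), as was Gnl2, a GTPase of large subunit assembly (0.32, adjusted p = 0.0266). Polr1a, the largest subunit of RNA polymerase I, was also called (range 0.57, limma adjusted p = 0.0247). It counts as highest at ZT10, but its means at ZT10 and ZT18 were nearly level (2.29 and 2.28), above 1.73 at ZT2.

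Rrn3 recruits RNA polymerase I to the ribosomal RNA promoter. Its levels in steady mice at 12 weeks were 1.83 and 1.84 at ZT2, 2.32, 2.57 and 2.14 at ZT10, and 2.18, 2.43 and 2.98 at ZT18. Both ZT2 mice were below the 6 others, which overlapped (range 0.69, limma adjusted p = 0.00948). Its low point rested on the ZT2 mice: without either of them the adjusted p was 0.0717 or 0.072, and between ZT10 and ZT18 alone the difference was 0.15 (adjusted p = 0.604). The remaining called members were Nhp2, a protein of the box H/ACA snoRNP, Mrto4, a placeholder protein of the large subunit stalk, Nip7, a large subunit factor, and Rrs1, which brings 5S RNA into the large subunit precursor. All 4 were highest at ZT18, with ranges of 0.49, 0.49, 0.64 and 0.53 and limma adjusted p of 0.00507, 0.00643, 0.0246 and 0.017. The 3 box C/D snoRNP core genes Nop56, Nop58 and Fbl, which guide 2′-O-methylation, were also highest at ZT18 but did not pass, with ranges of 0.57, 0.69 and 0.33 and limma adjusted p of 0.15, 0.152 and 0.146. For other settings, the share of all genes called is not given here or below except where stated. Changes of the count of called members under them are therefore not read as a result about the members. The count was 8 with the slide as a fixed block, 9 with marker covariates, 9 with no filter on dim probes and 19 without the acinar-rich arrays, where the ZT18 group was mouse 3 alone, the mouse with the highest members' mean. Leaving out 1 mouse gave 10 (without mouse 1 of the steady ZT2 group) to 18 (without mouse 3 of the steady ZT10 group at 30 weeks).

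Promoter windows of 37 of the 43 members were searched on both strands, because E-boxes are known binding sites of clock and MYC family factors. Only the 250 bases before the start of the gene were searched, and the 50 bases of each window after it were not. The windows are RefSeq's (GRCm38.p6). The E-box CACGTG stood in 3 members (8.11%), against 6.86% of the windows of all 27025 genes. The variant CACGCG stood in 7 members (18.9%) against 8.65% of all, the ROR element letters AGGTCA in 7 (18.9%) against 15.8%, and the D-box TTATGTAA in none against 0.977%. These matches are descriptions of the letters, not of binding. The E-box stretches of all 3 members are shown. Over time of day, Rrn3 was called in steady mice at 12 weeks alone and Nop2 in jet-lagged mice at 12 weeks alone. Imp4, a U3 snoRNP protein, was not called. Whether the motif goes with a daily profile was not tested. Each is 60 bases of the plus strand with the motif in capitals. The Rrn3 windows are chr16:13780457-13780516 (motif 215 bases before the start) and chr16:13780624-13780683 (48 before), the Nop2 window is chr6:125131796-125131855 (60 before) and the Imp4 window is chr1:34439681-34439740 (121 before).
Rrn3, distal: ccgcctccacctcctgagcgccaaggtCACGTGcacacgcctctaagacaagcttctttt
Rrn3, proximal: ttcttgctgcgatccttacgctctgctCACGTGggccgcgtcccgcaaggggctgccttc
Nop2: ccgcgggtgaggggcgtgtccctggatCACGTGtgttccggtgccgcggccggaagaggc
Imp4: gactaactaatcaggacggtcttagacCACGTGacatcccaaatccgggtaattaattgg

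In steady mice at 30 weeks, 6 of 43 members varied over the day (14%), against 11.2% of all genes. These were Nop16, Rrp9, Wdr12, Gnl2, Rrs1 and Nhp2, each of which was also called at 12 weeks. The median range of the members was 0.27, against 0.31 over all genes, and 22 of the 43 were highest at ZT10, 11 at ZT18 and 10 at ZT2. Nop16 read 2.36 and 2.36 at ZT2, 1.89, 1.75 and 1.99 at ZT10, and 2.58, 2.72 and 2.63 at ZT18. As at 12 weeks, the 3 times did not overlap and ZT10 was lowest (range 0.76, limma adjusted p = 0.000309). Rrp9 read 0.31 and 0.18 at ZT2, 1.10, 0.85 and 0.94 at ZT10, and 0.12, 0.08 and 0.12 at ZT18. All 3 ZT10 mice were above the 5 others (range 0.78, limma adjusted p = 0.00396).

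Wdr12 at 30 weeks read -0.37 and -0.27 at ZT2, -0.84, -0.98 and -0.47 at ZT10, and -0.13, -0.33 and -0.16 at ZT18 (range 0.59, limma adjusted p = 0.024). Its ZT10 mice were again the lowest, and ZT2 and ZT18 overlapped. Gnl2 read 2.21 and 2.11 at ZT2, 2.33, 2.15 and 2.39 at ZT10, and 1.81, 1.84 and 1.90 at ZT18, where all 3 mice were below the rest (range 0.43, limma adjusted p = 0.0051). Rrs1 read 1.45 and 1.31 at ZT2, 1.78, 1.98 and 2.12 at ZT10, and 1.71, 1.49 and 1.44 at ZT18 (range 0.51, limma adjusted p = 0.0351). It was highest at ZT10 here. At 12 weeks its mean was 1.93 at ZT18 and 1.80 at ZT10, and the mice of those times overlapped. Nhp2 read 4.79 and 4.94 at ZT2, 5.05, 4.90 and 4.97 at ZT10, and 5.16, 5.13 and 5.27 at ZT18, with all ZT18 mice on top (range 0.38, limma adjusted p = 0.0381). The count was 3 with no filter on dim probes, with marker covariates, without the acinar-rich arrays, and without mouse 2 of the ZT10 group or mouse 3 of the ZT18 group. It was 2 with the slide as a fixed block and 14 in the authors' deposited table, where 32.5% of all genes were called.

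In jet-lagged mice at 12 weeks, Nop2 alone among the 43 varied over the day (2.33%), against 5.7% of all genes. Nop2 is a methyltransferase of the large subunit RNA. It read 3.25 and 2.50 at ZT2, 3.40, 3.54 and 3.67 at ZT10, and 3.82, 3.87 and 3.95 at ZT18, and the 3 times did not overlap (range 1.09, limma adjusted p = 0.0318). Without mouse 2 of the ZT2 group its range was 0.62 (limma adjusted p = 0.52), and between ZT10 and ZT18 alone it was 0.25 (adjusted p = 0.938). Nolc1, a snoRNP chaperone, had the next range, 0.96, and was not called: it read 2.00 and 1.71, then 1.97, 2.62 and 2.39, then 2.70, 2.93 and 2.67, with all ZT18 mice on top. At 30 weeks Rrs1 alone was called, 1 of 43 against 3.62% of all genes. It read 1.89 and 1.52 at ZT2, 1.99, 1.79 and 1.71 at ZT10, and 2.10, 2.38 and 2.20 at ZT18, where all 3 mice were above the rest (range 0.54, limma adjusted p = 0.0418). The ranges of Nob1, the nuclease that makes the mature end of small subunit RNA, and of Nolc1 were 0.70 and were not called. Nob1 read -1.29 and -2.24, then -1.41, -1.58 and -1.33, then -1.16, -0.99 and -0.81, with all ZT18 mice on top. Nolc1 read 1.95 and 1.94, then 2.53, 2.19 and 2.48, then 2.38, 3.05 and 2.68, and ZT10 and ZT18 overlapped. Of the 43, 28 were highest at ZT18 at 12 weeks and 32 at 30 weeks, with median ranges of 0.31 and 0.28 beside 0.29 and 0.27 over all genes. At 30 weeks that split turned without the acinar-rich arrays, with 25 highest at ZT10 and 11 at ZT18, but the ZT10 group was then mouse 1 alone. The call on Rrs1 was lost under each of the 3 other scalings or background corrections, at adjusted p of 0.0508 to 0.0933.

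Whether the daily profile itself differed between schedules was asked with an interaction test, whose value is the range over times of the difference jet-lagged minus steady. At 12 weeks Nop16 was the only member called, 1 of 43 against 1.9% of all genes. Jet-lagged mice read 2.44 and 2.01 at ZT2, 2.25, 2.64 and 2.23 at ZT10, and 2.53, 2.47 and 2.47 at ZT18. At ZT10 all 3 jet-lagged mice were above all 3 steady mice, and at ZT18 all 3 were below them. Rrp12 had a value of 0.89 and was not called (adjusted p = 0.364). The interaction of Nop16 was 0.86 (limma adjusted p = 0.012), and the jet-lagged range of 0.31 was not called (adjusted p = 0.323). At 30 weeks jet-lagged mice read 2.28 and 2.30, then 2.27, 2.31 and 2.17, then 2.41, 2.50 and 2.42, again above the steady mice at ZT10 and below them at ZT18. That interaction was 0.57 and was not called (limma adjusted p = 0.146). The 12-week call was lost without mouse 3 of the steady ZT10 group (0.78, adjusted p = 0.0675), with the slide as a fixed block (0.87, adjusted p = 0.11) and with marker covariates (0.84, adjusted p = 0.174).

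At 30 weeks Rrp9 was the member called, 1 of 43 against 1.97% of all genes. Jet-lagged mice read 0.79 and 0.53 at ZT2, 0.91, 0.45 and 0.22 at ZT10, and 0.56, 1.11 and 0.72 at ZT18. The steady mice were high at ZT10 alone, and the jet-lagged mice overlapped across all 3 times. The interaction was 1.02 (limma adjusted p = 0.0359), and the jet-lagged range of 0.23 was not called (adjusted p = 0.696). Gnl3 had the next value, 0.84 at 30 weeks, and was not called (adjusted p = 0.323). At 12 weeks the interaction of Rrp9 was 0.83 (limma adjusted p = 0.102). Without the acinar-rich arrays the 30-week value was 0.57 (adjusted p = 0.417), with the slide as a fixed block 0.87 (0.272), and the call was lost without any 1 of 12 mice.

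**Figure D2:**
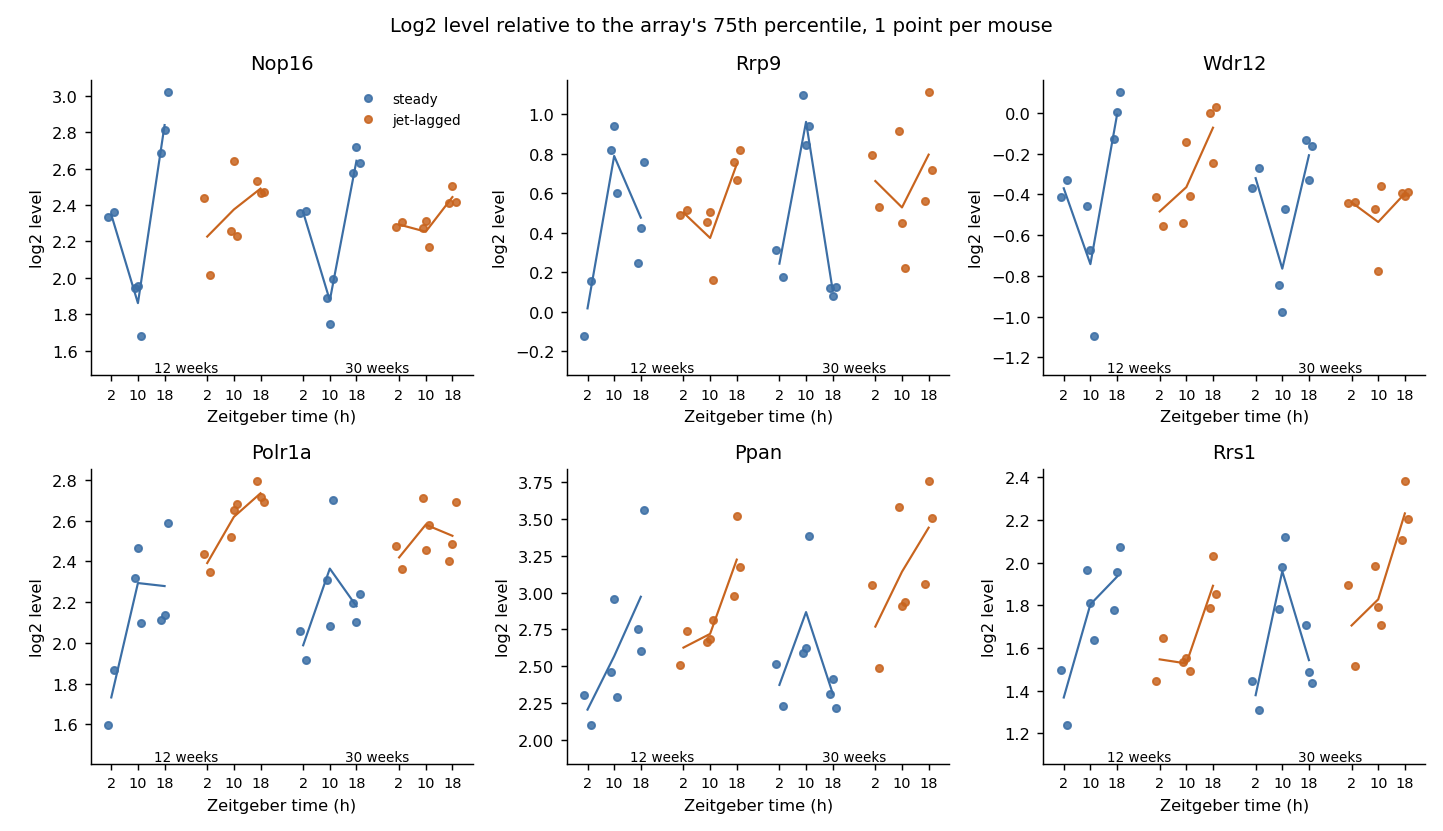
Levels of 6 members (log2 relative to the array's 75th percentile) in every mouse by ZT, schedule and age, 1 point per mouse with lines through group means. Nop16 in steady mice dips at ZT10 and is highest at ZT18 at both ages, and in jet-lagged mice it stays between 2.01 and 2.64.

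Different probes of a member did not always give the same profile. Ubtf, the upstream binding factor that opens ribosomal RNA genes for polymerase I, has 2 probes assigned to the same RefSeq transcript, and this gene was singled out after its values were seen. The brighter probe, which stood for Ubtf in the counts, had levels of 8.76 to 10.03 over mice, against 0.03 to 1.49 for the dimmer one. Why their levels lie so far apart was not tested, so the results of the brighter probe may not be those of the gene. The brighter probe was not called over the day under the steady schedule (0.44 at 12 weeks, limma adjusted p = 0.521). The dimmer one read 0.34 and 0.29 at ZT2, 0.88, 1.20 and 1.33 at ZT10, and 0.27, 0.47 and 0.31 at ZT18 in steady mice at 12 weeks. All 3 ZT10 mice were above the rest (range 0.90, limma adjusted p = 0.000941), and the same held at 30 weeks (range 1.04, adjusted p = 0.000811). In jet-lagged mice its ranges of 0.26 and 0.59 were not called (adjusted p = 0.672 and 0.192). Its interaction was 1.12 at 12 weeks (limma adjusted p = 0.0421) and 0.93 at 30 weeks (adjusted p = 0.0835). Dimmer probes of Brix1, a large subunit factor (0.75), and Nolc1 (1.16) were called at ZT18 in steady mice at 12 weeks, and one of Ncl, nucleolin, was called at ZT10 (0.43), while their brightest probes were not. All 3 probes of Npm1 that were called in steady mice at 12 weeks were highest at ZT10.

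**Figure D3:**
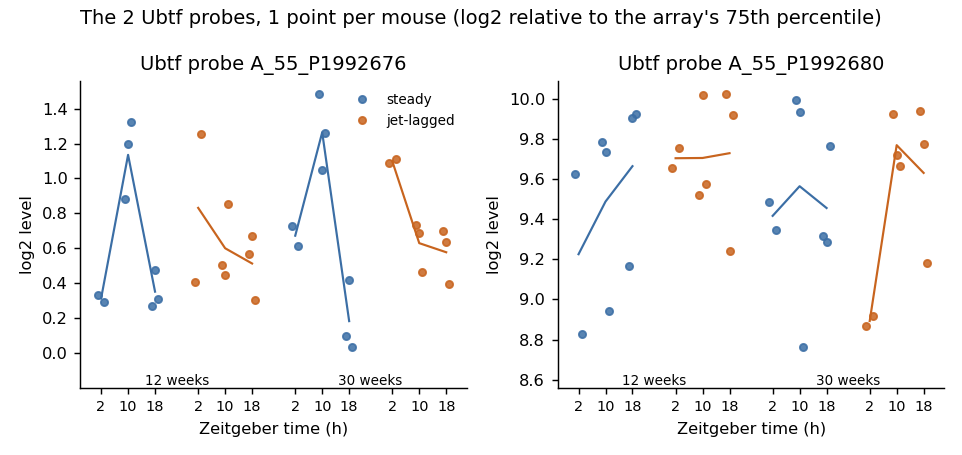
Levels of both Ubtf probes (log2 relative to the array's 75th percentile) in every mouse by ZT, schedule and age. The dimmer probe peaks at ZT10 in steady mice, and the brighter probe shows no called profile.

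The schedules were then compared with the 3 times averaged. At 12 weeks 5 of 43 members were higher in jet-lagged mice and 0 lower (11.6%), against 4.44% of all genes called, 2.15% higher and 2.29% lower. The median difference over the 43 was 0.16, against 0.03 over all genes, and 39 of 43 differences were above 0 (35 to 37 under the other scalings and the other background correction). Polr1a read 1.60 and 1.87 at ZT2, 2.32, 2.46 and 2.10 at ZT10, and 2.11, 2.14 and 2.59 at ZT18 in steady mice. In jet-lagged mice it read 2.44 and 2.35, then 2.52, 2.65 and 2.68, then 2.80, 2.72 and 2.69. The jet-lagged mice were above the steady mice at every time, without overlap (0.48 ± 0.08, SE, limma adjusted p = 0.00221, 8 mice per schedule).

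Nop58, a box C/D core protein, read 1.35 and 1.82, then 1.89, 2.23 and 1.50, then 2.28, 2.05 and 2.70 in steady mice at 12 weeks. Jet-lagged mice read 2.13 and 2.23, then 2.04, 2.57 and 2.42, then 2.52, 3.05 and 2.70, and overlapped the steady mice at ZT10 and ZT18 (0.49 ± 0.13, SE, limma adjusted p = 0.0399). Wdr43, of the small subunit processome, read 0.70 and 1.05, then 1.20, 1.61 and 0.91, then 0.96, 0.91 and 1.67 under the steady schedule. Under jet lag it read 1.49 and 1.26, then 1.48, 1.86 and 1.50, then 1.71, 1.86 and 1.82. The schedules overlapped at ZT10 alone (0.48 ± 0.13, limma adjusted p = 0.0355). Mrto4 read 2.77 and 2.64, then 2.89, 2.98 and 2.65, then 3.28, 3.13 and 3.22 under the steady schedule. Under jet lag it read 2.94 and 2.93, then 3.06, 3.19 and 3.22, then 3.30, 3.32 and 3.31, above the steady mice at each time without overlap (0.21 ± 0.06, limma adjusted p = 0.0353). Nhp2 read 4.88 and 4.64, then 4.89, 5.01 and 4.64, then 5.22, 5.28 and 5.28 under the steady schedule. Under jet lag its ZT2 mice had a higher value of 5.22 and a lower one still above both steady mice, followed by 5.04, 5.31 and 5.33 at ZT10 and 5.17, 5.08 and 5.14 at ZT18, so it was above the steady mice at ZT2 and ZT10 and below them at ZT18 (0.20 ± 0.06, limma adjusted p = 0.0458). Without the acinar-rich arrays none was called, 26 of 43 differences were above 0 and the median was 0.04, beside 0.03 over all genes, but 3 of the 6 groups at 12 weeks then held 1 mouse, among them steady ZT18 mouse 3. Leaving out 1 mouse gave 1 call (without mouse 1 of the steady ZT2 group, and without several others) to 8 (without mouse 2 of the steady ZT10 group, or mouse 3 of the steady ZT10 group at 30 weeks).

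At 30 weeks, again 5 of 43 members were higher in jet-lagged mice and 0 lower, against 6.24% of all genes called, 1.77% higher and 4.47% lower. The median difference was 0.15, against -0.02 over all genes, and 38 of 43 were above 0. Ppan, a large subunit factor, read 2.51 and 2.23 at ZT2, 2.59, 2.63 and 3.39 at ZT10, and 2.31, 2.41 and 2.22 at ZT18 in steady mice. In jet-lagged mice it read 3.05 and 2.49, then 3.58, 2.91 and 2.93, then 3.06, 3.76 and 3.51. Apart from steady ZT10 mouse 3 and jet-lagged ZT2 mouse 2, the schedules separated (0.58 ± 0.14, SE, limma adjusted p = 0.0143).

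Nop56 read 2.74 and 2.73, then 2.98, 2.79 and 3.76, then 2.88, 2.98 and 2.97 in steady mice at 30 weeks. Jet-lagged mice read 3.23 and 3.16, then 3.47, 3.31 and 3.40, then 3.25, 3.88 and 3.69, above every steady mouse other than ZT10 mouse 3 (0.44 ± 0.11, SE, limma adjusted p = 0.0204). Rrn3 read 2.01 and 1.96, then 2.31, 2.26 and 2.43, then 1.93, 2.01 and 2.08 under the steady schedule. Under jet lag it read 2.49 and 2.03, then 2.70, 2.42 and 2.40, then 2.41, 2.60 and 2.65, with overlap at ZT10 alone (0.33 ± 0.08, limma adjusted p = 0.0172). Polr1a read 2.06 and 1.92, then 2.31, 2.08 and 2.70, then 2.19, 2.10 and 2.24 under the steady schedule. Under jet lag it read 2.48 and 2.37, then 2.71, 2.46 and 2.58, then 2.40, 2.48 and 2.69, again with overlap at ZT10 alone (0.33 ± 0.08, adjusted p = 0.0159). Rrs1, whose levels by mouse are given above, rose from a steady mean of 1.63 to 1.92 (0.29 ± 0.07, adjusted p = 0.0148). Polr1a was the one member called at both ages. Without the acinar-rich arrays 1 was called, and 38 of 43 differences were above 0 with a median of 0.17. Leaving out 1 mouse gave 0 calls (without steady ZT2 mouse 2 or jet-lagged ZT2 mouse 1) to 13 (without steady ZT10 mouse 3).

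**Figure D4:**
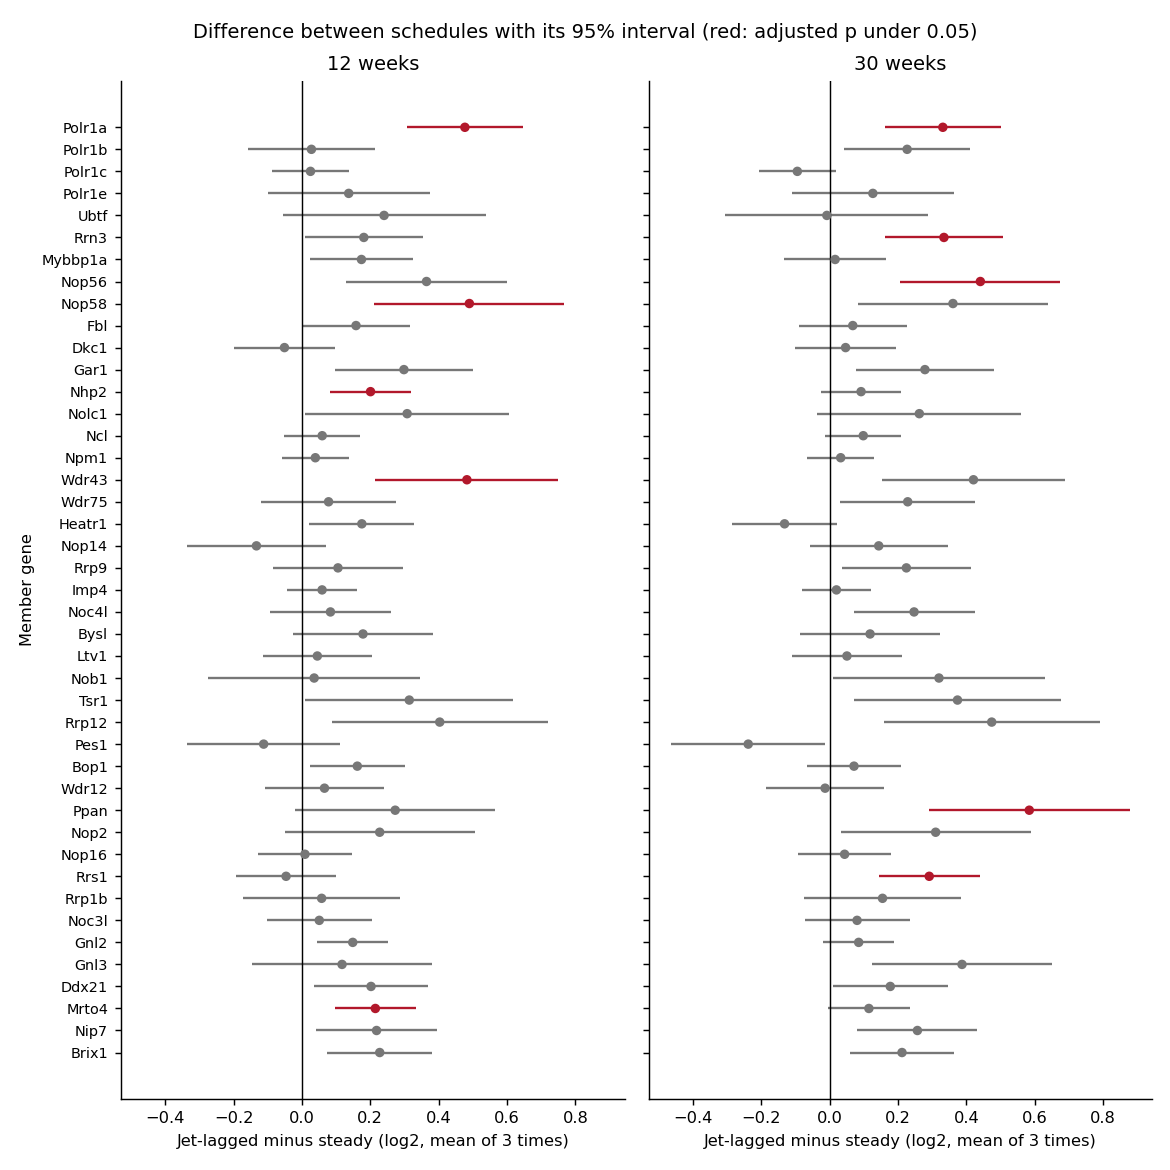
Difference jet-lagged minus steady over the mean of the 3 times (log2) for each of the 43 members at 12 and 30 weeks, with 95% confidence intervals. At 12 weeks 39 of 43 points lie above 0, and at 30 weeks 38 do. The share of all genes above 0 is not given.

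Among single times, ZT18 at 30 weeks held the most calls: 5 of 43 members were higher in jet-lagged mice, against 3.47% of all genes called and 1.7% higher. The median difference over the 43 was 0.28, against -0.01 over all genes. For 24 members (55.8%) all 3 jet-lagged mice were above all 3 steady mice, as for 13.3% of all genes, and the count was 20 in the authors' deposited table, which holds 39 members (18.2% of all genes there), and 24 to 26 under the other scalings and the other background correction (11.3% to 14.4% of all genes). For 3 members, Pes1, Wdr12 and Nop16, all 3 were below (6.98%, against 9.96% of all genes). Kupffer cell and macrophage markers also separated the groups here, with mean levels of 4.03 to 4.43 in jet-lagged and 3.39 to 3.99 in steady mice, and their part in the result was not tested. Muscle levels overlapped, with 3.64, 3.39 and -0.70 in the jet-lagged group and 0.69 to 2.42 in the steady group. The steady mice were on slides 8, 4 and 6 and the jet-lagged mice on slides 5, 2 and 4. The groups thus shared slide 4 alone. The counts of mice without overlap take no account of the slide, and its part in them was not tested.

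Ppan differed most at this time, with 2.31, 2.41 and 2.22 in steady and 3.06, 3.76 and 3.51 in jet-lagged mice (1.07 ± 0.24, SE, limma adjusted p = 0.0136). Gnl3, the nucleolar GTPase nucleostemin, read 0.30, 0.27 and 0.22 against 0.76, 1.26 and 1.34 (0.88 ± 0.22, adjusted p = 0.0235). In both genes every jet-lagged mouse was above every steady mouse. Rrs1 read 1.71, 1.49 and 1.44 against 2.10, 2.38 and 2.20 (0.64 ± 0.12, SE, limma adjusted p = 0.0038). Rrp9 read 0.12, 0.08 and 0.12 against 0.56, 1.11 and 0.72 (0.64 ± 0.16, adjusted p = 0.0226), and Nip7 read 2.51, 2.60 and 2.41 against 2.97, 3.26 and 3.12 (0.55 ± 0.14, adjusted p = 0.0329). These 3 did not overlap either. Without the acinar-rich arrays none of the 5 was called, with Ppan at 0.96 (adjusted p = 0.0669) and Rrs1 at 0.59 (0.0692). With the slide as a fixed block, 1 member was called over ZT2, ZT10 and ZT18 together. Counted with ZT2 and ZT10, 1 member was called without mouse 2 or 3 of the steady ZT18 group or mouse 2 or 3 of the jet-lagged one, 3 without mouse 1 of the steady ZT18 group, 8 without mouse 1 or 3 of the steady ZT18 group at 12 weeks, and 11 without mouse 3 of the steady ZT10 group.

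**Figure D5:**
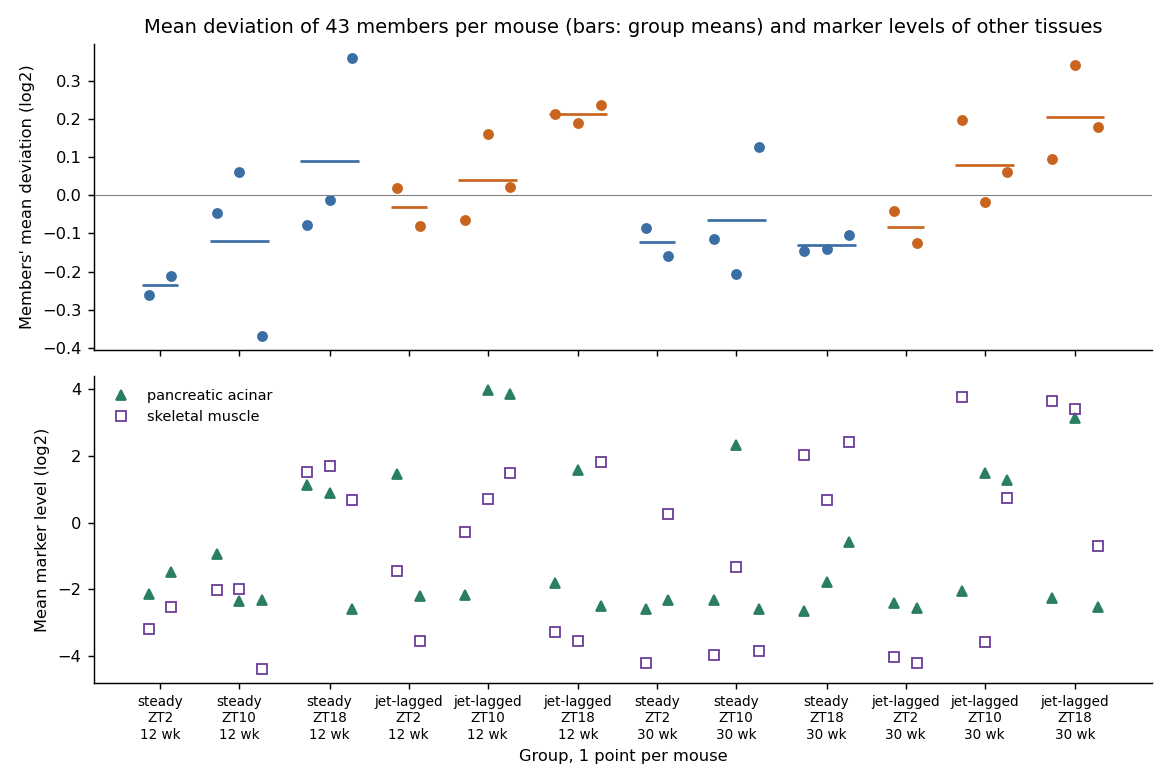
Mean deviation of the 43 members from their own means over 32 mice (log2), 1 point per mouse, by ZT, schedule and age. At ZT18 and 30 weeks the jet-lagged mice lie between 0.09 and 0.34 and the steady mice between -0.15 and -0.11.

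At ZT10 and 12 weeks, Nop16 and Nhp2 were higher in jet-lagged mice, 2 of 43 against 1.72% of all genes. Nop16 differed by 0.53 ± 0.11 (SE, limma adjusted p = 0.0172). Nhp2 read 4.89, 5.01 and 4.64 in steady and 5.04, 5.31 and 5.33 in jet-lagged mice, without overlap (0.40 ± 0.10, adjusted p = 0.0337). With marker covariates neither was called, and muscle levels did not overlap between these groups. By limma 0 members were called at ZT2 and ZT18 at 12 weeks and at ZT2 and ZT10 at 30 weeks, where 0.255%, 2.83%, 1.36% and 0.735% of all genes were. At an unadjusted p under 0.05 the counts were 5, 9, 2 and 5. The share of all genes at that unadjusted threshold is not given here or below. Counts at an unadjusted p are therefore not read as a result about the members or the other lists. At ZT10 and 12 weeks all 3 jet-lagged mice were above the steady mice for 6 members (9.73% of all genes) and below for 3 (8.71%), and at ZT18 for 5 (8.5%) and 2 (11.2%). At ZT10 and 30 weeks they were above for 3 (4.99%) and below for 2 (9.66%). Over any of the 3 times, 2 members were called at 12 weeks and 5 at 30 weeks, against 4.53% and 5.03% of all genes.

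Age was compared within each schedule with the times averaged. In steady mice limma called 0 members (2 at an unadjusted p under 0.05), against 0.912% of all genes; Gnl3 (-0.24) and Heatr1, of the small subunit processome (0.21), had the largest differences. In jet-lagged mice Rrs1 alone was higher at 30 weeks, by 0.26 ± 0.07 (limma adjusted p = 0.0306), against 5.3% of all genes called and 2.09% higher. Its call was lost without any 1 of 10 mice. Ppan differed by 0.27 and was not called. The schedule effect did not differ between ages for any member at the threshold, with 0 called by limma, 2 at an unadjusted p under 0.05, and 0.00865% of all genes called. The largest values were 0.34 for Rrs1 and 0.31 for Ppan.

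Of 104 other listed biogenesis factors, 99 were measured. In steady mice 17 varied over the day at 12 weeks (17.2%, against 17.4% of all genes) and 8 at 30 weeks (8.08%, against 11.2%). In jet-lagged mice 1 did at each age (1.01%, against 5.7% and 3.62%), so none of these shares was above that of all genes. With the times averaged, 4 of the 99 were higher in jet-lagged mice at 12 weeks, against 2.15% of all genes, and 0 were lower, against 2.29%. These 4 were Rrp15 (0.27), Rsl1d1 (0.26), Dcaf13 (0.22) and Rrp7a (0.21). At 30 weeks Cd3eap, a polymerase I subunit, and Taf1d, of the polymerase I selectivity factor, were higher (0.57 and 0.28). Ddx52 and Nsa2 were lower (-0.33 and -0.16). Of all genes 1.77% were called higher and 4.47% lower. At ZT18 and 30 weeks Cd3eap (0.84), Taf1d (0.67), Surf6 (0.43), Sbds (0.36) and Dcaf13 (0.35) were higher and Nat10 (-0.50) was lower. Of all genes 3.47% were called there, and 1.7% were higher. At ZT18 and 12 weeks Taf1d (0.54), Dcaf13 (0.35) and Sbds (0.34) were higher, against 2.83% of all genes called. At ZT10 and 12 weeks Nat10 (0.43) was higher, against 1.72%. Of 79 cytosolic ribosomal protein genes 78 were measured, and limma called 0 over time of day in any schedule or age (4, 1, 0 and 4 at an unadjusted p under 0.05, steady before jet-lagged and 12 before 30 weeks). At 30 weeks Rps2 (-0.25), Rplp1 (-0.22), Rpl3 (-0.19) and Rpl4 (-0.15) were lower in jet-lagged mice, 5.13% of the 78 against 4.47% of all genes called lower. The median of the 78 was -0.10. At 12 weeks the ribosomal proteins' median was 0.08 with 0 called (8 at an unadjusted p under 0.05).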

How the data were processed

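Liver RNA of 32 mice was hybridised to 1-colour Agilent arrays, 1 mouse per array. Per the file headers, the deposited intensities are processed signals of Agilent Feature Extraction 11.0.1.1 (9.1 in the submitters' processing notes), background-subtracted within each array. The authors' deposited table holds log2 values after normalization and batch effect removal by a method not given in the sources used here, and it was used as an alternative.

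Control and outlier spots were dropped, spots of a probe averaged, and values expressed as log2 minus the array's 75th percentile. A probe was kept where every array of some group had it well above background (30511 of 55681 probes, 23132 genes), and the brightest stood for its gene. On each array 43.5 to 58.1% of probes were well above background; the number of arrays limits the precision. limma 3.58.1 (R 4.3.3) fitted 12 group means with the slide (8 slides of 4 arrays) as a random block, correlation 0.255. 17 comparisons were made, each with Benjamini-Hochberg adjustment over all genes and a threshold of 0.05. Each mouse is a separate animal. The code was tested on simulated data.

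Within a comparison, the 6 called members of largest range or difference were given by mouse. Where fewer than 2 were called, the 2 of largest value were named, other than at single times without a call. Age results and uncalled interactions were given without values by mouse. Members, lists and markers were chosen with earlier results of these data known. Alternatives were normexp (offset 50), quantile and detected-probe scaling, 2 other filters, averaged probes, other slide and replicate blocks, marker covariates, and leaving out mice. Normexp was planned on mean signals, which the data as given did not hold, and was run on median signals instead. Figures used Python 3.11.15 and matplotlib 3.10.9.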

Additional observations from a re-analysis of the deposited data

Results flagged for a closer look

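The following results stand here because the effect of the schedule differed between times of day by an interaction test (limma, adjusted p under 0.05). Each value is the range over times of the jet-lagged minus steady difference on the log2 scale. Among the members, Nop16 had 0.86 at 12 weeks (adjusted p = 0.012) and Rrp9 had 1.02 at 30 weeks (adjusted p = 0.0359). Dimmer probes gave 1.12 for Ubtf at 12 weeks (adjusted p = 0.0421) and 0.55 for Npm1 at 30 weeks (adjusted p = 0.0467). Among other biogenesis factors, Taf1d had 0.93 at 12 weeks (adjusted p = 0.0147). Nat10, which acetylates ribosomal RNA, had 0.67 at 12 weeks (adjusted p = 0.0485) and 0.69 at 30 weeks (adjusted p = 0.0459). The call on Nop16 was lost without mouse 3 of the steady ZT10 group at 12 weeks (adjusted p = 0.0675), and that on Rrp9 without any 1 of 12 mice. Groups of 2 or 3 mice are below the size at which single mice are tested as outliers within a group.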

How the results depend on the processing

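No call of a named member on a difference between schedules or ages reversed direction. Ranges over time of day and interactions have no sign, so a reversal could not be seen there, and a change of the highest time was not checked. Of 34 calls on named members, 8 were kept without each mouse in turn, and 3 (Nop16 in steady mice at both ages, Wdr12 in steady mice at 12 weeks) under every other setting. The counts of called members below moved by more than 1.5 times under the settings named, and the cause was not tested. The share of all genes called also changes with the setting and is not given beside these counts. In the authors' table that share was higher too for steady mice at 30 weeks, as given above. A higher or lower count is therefore not read as a result about the members. For variation over the day at 12 weeks under the steady schedule (14 members) the count was 9 with no filter on dim probes, 8 with the slide as a fixed block and 9 with marker covariates, and 10 to 18 leaving out 1 mouse. At 30 weeks (6) it was 3 with no filter, 2 with the fixed slide block, 14 in the authors' deposited table, 3 with marker covariates and 3 without the acinar-rich arrays (chosen after seeing the data), and 3 to 7 leaving out 1 mouse. In jet-lagged mice at 12 weeks (1) it was 2 with normexp, with probes bright on all arrays only and with averaged probes, 8 in the authors' table, 0 with no filter, a fixed or no slide block and without the ZT2 mice, and 0 to 4 leaving out 1 mouse. In jet-lagged mice at 30 weeks (1) it was 4 in the authors' table, 0 with normexp, quantile or detected-probe scaling, no filter, a fixed or no slide block, marker covariates, without ZT2 mice and without the acinar-rich arrays, and 0 to 1 leaving out 1 mouse. For the schedule with times averaged at 12 weeks (5) it was 3 with normexp, 1 with no filter, 2 with a fixed and 1 with no slide block, 10 in the authors' table, 2 with marker covariates, 1 without ZT2 mice, 0 without the acinar-rich arrays, and 1 to 8 leaving out 1 mouse. At 30 weeks (5) it was 9 with quantile and 11 with detected-probe scaling, 3 with a fixed or no slide block, 12 in the authors' table, 1 without ZT2 mice, 1 without the acinar-rich arrays, and 0 to 13 leaving out 1 mouse. For any single time at 12 weeks (2) it was 4 with quantile or detected-probe scaling and with probes bright on all arrays, 1 with no filter or no slide block, 0 with a fixed slide block, marker covariates or without the acinar-rich arrays, 9 in the authors' table, and 0 to 6 leaving out 1 mouse. At 30 weeks (5) it was 9 with probes bright on all arrays, 1 with a fixed slide block, 16 in the authors' table, 0 without the acinar-rich arrays, and 1 to 11 leaving out 1 mouse. For the interaction at 12 weeks (1) it was 2 with detected-probe scaling, 3 in the authors' table, 0 with a fixed slide block or marker covariates, and 0 to 2 leaving out 1 mouse. At 30 weeks (1) it was 2 with no slide block, 3 without ZT2 mice, 5 in the authors' table, 0 with no filter, a fixed slide block or without the acinar-rich arrays, and 0 to 2 leaving out 1 mouse. For age in jet-lagged mice (1) it was 0 with no filter, a fixed or no slide block, marker covariates or without the acinar-rich arrays, and 0 to 1 leaving out 1 mouse; age in steady mice and schedule by age stayed at 0. With the mouse number as a replicate block the counts over time of day were 13, 5, 0 and 0 (steady before jet-lagged, 12 before 30 weeks), and the numbers did not pair the mice: same-numbered mice correlated at -0.02 and 7 of 32 correlated best with their own number. Detected-probe scaling moved the median of all genes by 0.12 between groups. Without the acinar-rich arrays 4 groups held 1 mouse, which was assumed to vary like the others. Groups of 2 or 3 mice limit what could be called.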
